A study of Homo sapiens with 8 samples.

Results

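Carbonic anhydrases were examined as a family in Panc10.05, a long-established line from a human pancreatic tumour, by the 7 genes CA2, CA5B, CA8, CA9, CA11, CA12 and CA13, taken by symbol from the 60675 genes of the count files. Of the 7, 5 had enough reads to be tested among 16661 genes, and CA8 and CA12 did not. The 8 libraries formed 4 groups of 2. Parental untreated cells had never been given indisulam, and parental indisulam cells received 2 µM for 18 h. The resistant line, derived from Panc10.05 by culture in rising indisulam, was sequenced while it was kept at 2 µM (resistant indisulam) and after a drug holiday (resistant untreated). The resistant cells thus carry a history of exposure in both of their groups, and they come from a single derived line. A rise or fall with the drug in resistant cells below means the level on it against that after the holiday. A change during the holiday would give the same value. The difference of the responses sets 18 h of drug in never-treated cells against withdrawal from continuous culture. Line and kind of exposure thus cannot be told apart in it. The growth notes of the labels name A549, a lung line, whereas the titles and cell line field give Panc10.05, which was followed here. The study describes the libraries of a group as technical replicates, so every p-value measures only the spread between libraries.

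Carbonic anhydrases are zinc enzymes that interconvert carbon dioxide and bicarbonate with release of a proton, and primary sulfonamides block them by binding the zinc. Indisulam is a sulfonamide that was known as a carbonic anhydrase inhibitor, although its cytotoxicity is attributed to the degradation of the splicing factor RBM39 through the DCAF15 ubiquitin ligase. CA2 and CA13 are cytosolic enzymes, CA5B is mitochondrial, and CA9 and CA12 are membrane enzymes with an active site outside the cell, where CA9 is a classic marker of hypoxia. CA8 and CA11 are carbonic anhydrase-related proteins that lack catalytic activity.

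Each library held between 65266253 and 108002436 gene reads. Replicates are given in number order, and values with or without indisulam follow the groups named above. The RBM39 transcript rose with the drug by 1.11 log2 units in parental cells (adjusted p 4.9e-18) and by 0.94 in resistant cells (adjusted p 7.3e-18). These values are RNA alone, and by western blot the study reports RBM39 protein strongly reduced in resistant Panc10.05 cells on a lower dose of indisulam. DCAF15 was lower in resistant cells, at -0.80 log2 units off the drug (adjusted p 1.6e-14). The epithelial markers KRT7, KRT8, KRT18, KRT19, EPCAM, CDH1, SOX9 and MUC1 were all detected. Their summed level was 6400 to 6589 CPM in parental and 10973 to 12383 CPM in resistant libraries. CPM is the reads of a gene relative to the TMM-scaled library total. Off the drug all 8 were higher in resistant cells (edgeR quasi-likelihood test, adjusted p under 0.05), where 30.3% of all tested genes were. On the drug 7 were higher and 1, EPCAM, was lower, against 34.6% and 34.9%. Markers of leukocytes (PTPRC, CD3E) and endocrine cells (INS, GCG, CHGA), the acinar markers CPA1 and CELA3A, and the lung markers SFTPB and NKX2-1 had no reads in any library. PRSS1 and SFTPC had 11 and 1 reads over all libraries. The fibroblast list summed to 1.35 to 1.88 CPM in 6 libraries and to 3.97 and 4.03 CPM in resistant indisulam libraries, nearly all from COL1A1, while COL1A2 and PDGFRB had 11 and 18 reads over all libraries. The endothelial pair summed to at most 0.311 CPM in any library.

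Among the tested members, drug treatment of parental cells lowered 2 and raised none, where 26.6% of all tested genes were lower and 31.6% higher (edgeR quasi-likelihood test, adjusted p under 0.05). In resistant cells on the drug, 3 of 5 were higher and 1 lower than after the holiday, against 24.9% and 25.8% of all genes. Between untreated lines, 2 of 5 were higher and 2 lower in resistant cells, against 30.3% and 29.9%. On the drug, 4 of 5 were higher and 1 lower in resistant cells, against 34.6% and 34.9%. The response itself differed between the lines for 3 of 5, all 3 more positive in resistant cells, against 22.7% higher and 27.5% lower. Most members thus differed in most comparisons, but so did a large share of all genes, and the counts of so few members say nothing particular to the family. The median over the members was -0.03, 0.34, -0.09, 0.37 and 0.25 log2 units in these 5 comparisons, where the median of all tested genes was 0.01, 0.01, -0.02, 0.00 and 0.01. Comparisons that start or end at the same group share its 2 libraries and are not independent of each other.

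**Figure D1:**
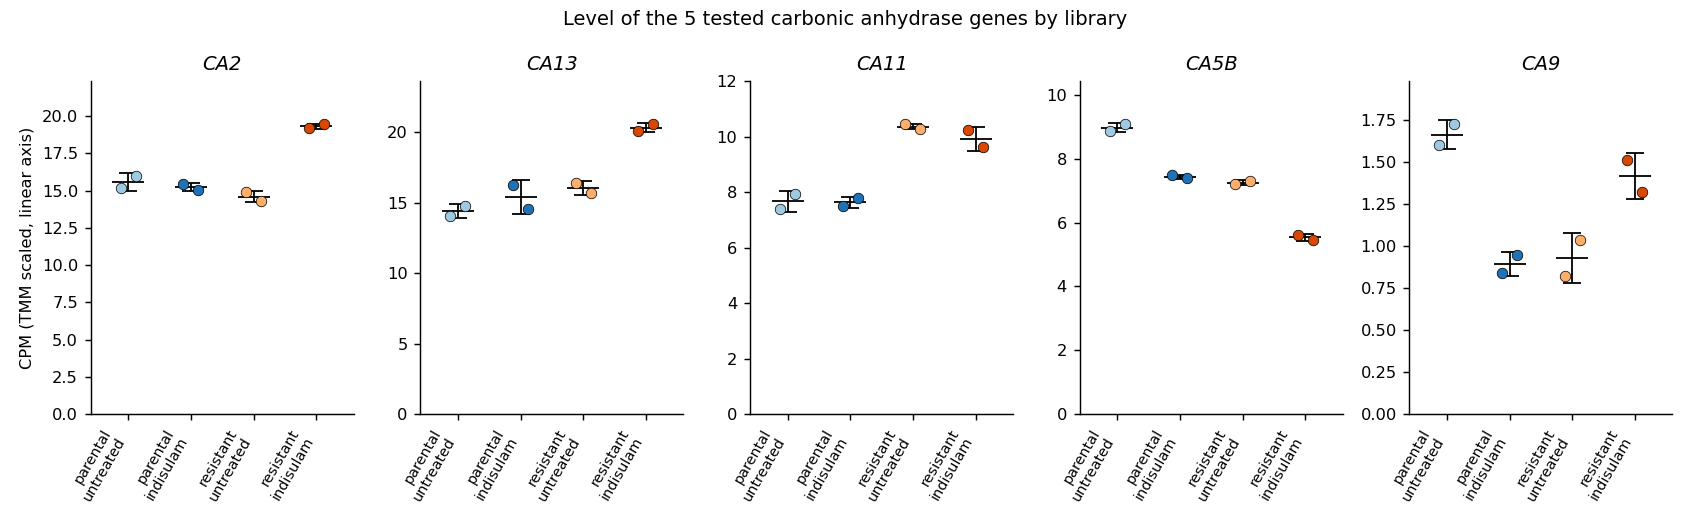
Level in CPM (linear axis from 0, a separate scale for each gene) of CA2, CA13, CA11, CA5B and CA9 in each of the 8 libraries; points are libraries, horizontal bars are group means and error bars are SD (n = 2). CA2 and CA13 were highest in resistant indisulam cells, CA11 was higher in both resistant groups, CA5B was lowest in resistant indisulam cells, and CA9 was lowest in parental indisulam and resistant untreated cells.

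CA2, the fast and widely distributed cytosolic enzyme (ENSG00000104267, GRCh38 chromosome 8, 85463968 to 85481493, plus strand), was the most abundant member per exon length. Its level was 15.2 and 16.0 CPM without and 15.5 and 15.0 with indisulam in parental cells, and 14.9 and 14.3 without and 19.2 and 19.4 with it in the resistant line, from 931 to 1870 reads. The 2 resistant indisulam libraries stood above the other 6, whose group means lay between 14.6 and 15.6 CPM. In resistant cells CA2 rose with the drug by 0.40 log2 units (SE 0.048, adjusted p 2.2e-07), a fold of 1.32. In parental cells the change was -0.03 (95% interval -0.13 to 0.07, adjusted p 0.58), and the difference of the responses was 0.44 log2 units (SE 0.067, adjusted p 1.1e-05). Resistant cells exceeded parental cells on the drug by 0.34 (adjusted p 8e-07), whereas off the drug the difference was -0.09 (95% interval -0.19 to 0.01, adjusted p 0.099), although the libraries of these 2 groups did not overlap. With library totals in place of TMM that last difference was -0.12 and passed the test (adjusted p 0.036). CA2 and CA1 are also known as red cell genes. CA1 had 2 reads over all libraries and HBA1 had 1. HBB had mean levels of 0.514 and 0.519 CPM in untreated and treated parental cells, where neither it nor CA2 passed the test. In the resistant line HBB was at 1.23 CPM without and 0.260 CPM with indisulam, while CA2 rose. A link between HBB and CA2 was not tested.

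CA13, the other cytosolic enzyme (ENSG00000185015, chromosome 8, 85220587 to 85284073, plus strand), lies near CA2 in the same gene cluster. It was at 14.1 and 14.8 CPM without and 16.3 and 14.6 with indisulam in parental cells, and 16.4 and 15.7 without and 20.1 and 20.6 with it in the resistant line. As for CA2, the highest 2 libraries were those of resistant cells on the drug. CA13 rose in resistant cells by 0.34 log2 units (SE 0.052, adjusted p 8e-06). In parental cells the groups overlapped and the change was 0.10 (95% interval -0.01 to 0.20, adjusted p 0.12), and without replicate 2 of parental indisulam it became 0.15 (adjusted p 0.031). The difference of the responses was 0.25 log2 units (SE 0.074, adjusted p 0.0081). That call was lost with the DESeq2 Wald test (0.23, adjusted p 0.051) and without replicate 2 of parental untreated (0.21, adjusted p 0.052). The excess of CA13 in resistant over parental cells was 0.40 with indisulam present (adjusted p 3.2e-07), and without it 0.15 (adjusted p 0.015). The latter call was lost without replicate 1 of parental untreated (0.12, adjusted p 0.14) or replicate 1 of resistant untreated (0.12, adjusted p 0.12).

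CA5B, the mitochondrial enzyme (ENSG00000169239, chromosome X, 15688830 to 15788411, plus strand), was the member that fell in both lines. Its level was 8.88 and 9.08 CPM without and 7.48 and 7.39 with indisulam in parental cells, and 7.20 and 7.30 without and 5.62 and 5.46 with it in the resistant line. No 2 groups overlapped, although parental indisulam and resistant untreated libraries were separated by less than 0.2 CPM and were not tested against each other. With indisulam the log2 change of CA5B was -0.27 in parental cells (SE 0.06, adjusted p 0.00042), and in the resistant line it was -0.39 (SE 0.068, adjusted p 4e-05). The responses did not differ detectably, with a difference of -0.12 (95% interval -0.30 to 0.07, adjusted p 0.29). Resistant minus parental cells gave -0.31 log2 units without drug (adjusted p 0.00012), and with drug the same difference was -0.43 (adjusted p 4.6e-06).

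The values of CA5B carry an uncertainty from its copy. CA5BP1, a transcribed pseudogene derived from CA5B, overlaps the annotated span of CA5B on the same strand, with 29 shared exon bases, and held 66.8% of the reads of the pair, so reads common to both may have been dropped or divided in ways not known here. CA5BP1 moved the other way in both lines: it rose with the drug by 0.40 log2 units in parental cells (adjusted p 1.9e-07) and by 0.15 in resistant cells (adjusted p 0.02). CA5B reads amounted to 68.3% and 65.8% of CA5BP1 reads without and 43.0% and 41.0% with indisulam in parental cells, and 53.4% and 51.4% without and 37.0% and 35.5% with it in the resistant line. The ratio was thus lower on the drug in every library of either line. Whether the division of reads moved with the drug was not tested.

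**Figure D2:**
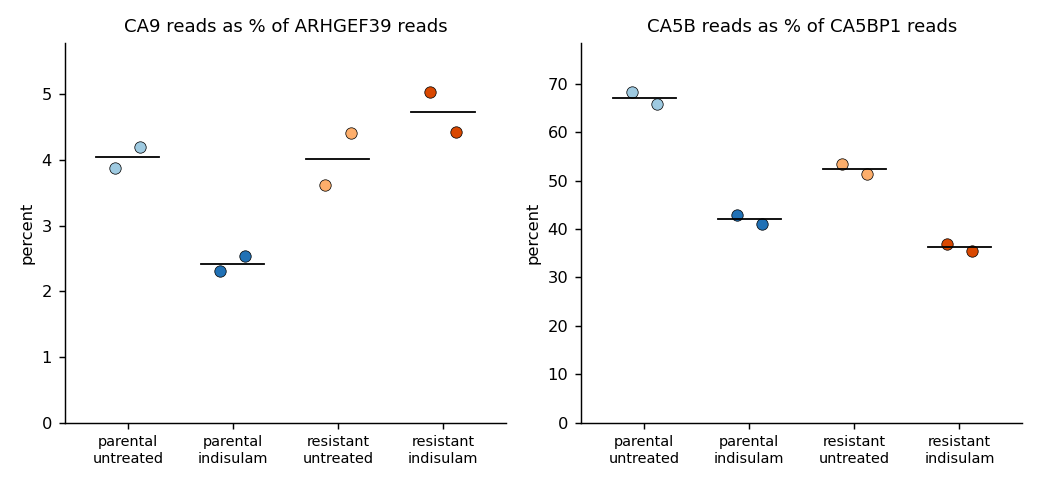
Reads of CA9 as a percentage of reads of ARHGEF39, which overlaps it on the opposite strand (left), and of CA5B as a percentage of reads of its copy CA5BP1 (right), in each of the 8 libraries (points; bars are group means; linear axes from 0). The left ratio was lowest in parental indisulam cells, at 2.31% and 2.53%, and the right ratio was lower with the drug in both lines.

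CA9 (ENSG00000107159, chromosome 9, 35673928 to 35681159, plus strand), the hypoxia-inducible membrane enzyme, had the largest changes of the tested members and the fewest reads, 61 to 184 per library. Its level was 1.60 and 1.72 CPM without and 0.840 and 0.943 with indisulam in parental cells, and 0.824 and 1.03 without and 1.51 and 1.32 with it in the resistant line. Parental indisulam and resistant untreated libraries overlapped at the low end. Parental untreated cells were highest, with both libraries above those of resistant indisulam cells, a pair that was not tested. CA9 was lower with indisulam in parental cells (log2 change -0.89, SE 0.151, adjusted p 2.2e-05). In resistant cells it was higher on the drug than after the holiday by 0.61 (SE 0.164, adjusted p 0.0035). The difference of these responses was 1.50 log2 units (SE 0.223, adjusted p 6.8e-06). Resistant cells were at -0.85 log2 units relative to parental cells off the drug (SE 0.154, adjusted p 4.4e-05) and at 0.65 on it (SE 0.162, adjusted p 0.001). The rise in resistant cells lost its call without replicate 1 of resistant untreated (0.45, adjusted p 0.064), and the other 4 CA9 calls held without any single library.

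Except between untreated lines, the direction of CA9 was also the prevailing one among genes of its abundance. Of 2033 tested genes with a mean level of 0.5 to 2 CPM, 34.4% were lower and 9.39% higher with the drug in parental cells, and 25.4% were higher and 12.4% lower with it in resistant cells. In the same genes the difference of the responses was called higher in 34.1% and lower in 4.28%, with a median of 0.35 log2 units. On the drug 45.5% were higher and 16.7% lower in the resistant line. In untreated cells the shares were close, with 27.8% lower and 24.6% higher in the resistant line and a median of -0.09 log2 units.

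Part of CA9 lies opposite another gene. ARHGEF39, a guanine nucleotide exchange factor gene on the minus strand, shares 571 of the 1598 exon bases of CA9 and held 96.4% of the reads of the pair. CA9 reads were 3.88% and 4.20% of ARHGEF39 reads without and 2.31% and 2.53% with indisulam in parental cells, and 3.62% and 4.41% without and 5.03% and 4.43% with it in the resistant line. ARHGEF39 fell with the drug by 0.16 log2 units in parental cells (adjusted p 4e-04) and rose by 0.38 in resistant cells (adjusted p 2.5e-08), the same directions as CA9 with smaller sizes. Off the drug it was lower in resistant cells, at -0.83 (adjusted p 1.7e-15), nearly the value of CA9, and on the drug it was lower with -0.30 (adjusted p 1.3e-07), where CA9 was higher. Libraries were stranded, but the strand setting of the counting is not given in the sources used here. Of 11 protein-coding genes with at least 90% of their exon bases opposite an exon of another gene, 3 had over 1000 reads, and the median gene had 0.218% as many reads as the gene opposite. The part of antisense reads in the CA9 values was not tested.

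The start of CA9 is shown because its promoter is known for a hypoxia response element beside the start site. Windows of 250 bases before to 50 bases after the start (RefSeq, GRCh38.p14, written 5′ to 3′ on the strand of the gene) were found for 3 members, CA9, CA12 and CA5B. The CA5B window surrounds a start inside the annotated gene, downstream of the first annotated base given above, and the CA9 and CA12 windows lie at the annotated starts. Capitals mark ACGTG or GCGTG, the core letters of that element, on either strand; no matches overlapped. CA9 is set beside CA12, the other membrane enzyme, and CA5B, the member with the opposite response in resistant cells.
CA9 (chr9:35673678-35673977, plus strand): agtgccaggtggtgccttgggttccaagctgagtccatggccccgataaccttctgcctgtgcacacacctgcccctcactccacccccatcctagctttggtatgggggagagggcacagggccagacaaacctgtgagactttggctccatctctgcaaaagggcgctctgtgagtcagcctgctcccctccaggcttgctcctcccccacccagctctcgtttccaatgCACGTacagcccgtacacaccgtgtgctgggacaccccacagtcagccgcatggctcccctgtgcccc
CA12 (chr15:63381797-63382096, minus strand): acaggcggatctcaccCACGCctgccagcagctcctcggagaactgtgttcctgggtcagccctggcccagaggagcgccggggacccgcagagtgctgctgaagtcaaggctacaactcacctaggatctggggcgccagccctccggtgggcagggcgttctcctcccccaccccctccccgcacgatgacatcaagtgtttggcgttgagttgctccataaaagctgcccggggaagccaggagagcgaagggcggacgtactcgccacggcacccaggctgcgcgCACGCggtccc
CA5B (chrX:15738020-15738319, plus strand): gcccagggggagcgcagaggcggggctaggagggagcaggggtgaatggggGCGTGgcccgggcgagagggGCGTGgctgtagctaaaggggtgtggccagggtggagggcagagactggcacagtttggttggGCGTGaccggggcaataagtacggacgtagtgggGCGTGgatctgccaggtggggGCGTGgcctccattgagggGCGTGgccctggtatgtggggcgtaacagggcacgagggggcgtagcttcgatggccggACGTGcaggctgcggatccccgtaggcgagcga

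The CA9 window held 1 match, an ACGTG on the strand opposite to the gene whose 5 bases begin 18 bases before the start. The CA12 window held no ACGTG and 2 matches to GCGTG, and the CA5B window held 1 ACGTG and 6 GCGTG. These letters are common, since 21.4% of 35116 promoter windows held ACGTG, 36.5% held GCGTG and 48.4% held at least one of them. The GC content was 62.0% in CA9, 66.7% in CA12 and 69.0% in CA5B. The median of all windows was 58.7% and the quartiles were 47% and 68%, so CA9 and CA12 lay between the quartiles. The matches describe letters only.

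CA12 (ENSG00000074410, chromosome 15, 63321378 to 63381846, minus strand) was close to undetected. It had 0 and 1 reads without and 2 and 0 with indisulam in parental cells, and 0 and 0 without and 3 and 1 with it in the resistant line. These 7 reads allow no comparison between groups. A count of 0 allows up to 3 reads, which is 0.0274 to 0.0462 CPM depending on the library, and the highest CA12 level was 0.0445 CPM.

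CA11, a carbonic anhydrase-related protein without activity that is known mainly from brain (ENSG00000063180, chromosome 19, 48637946 to 48646187, minus strand), differed by line and not detectably by drug. It was at 7.39 and 7.94 CPM without and 7.50 and 7.77 with indisulam in parental cells, and 10.4 and 10.3 without and 10.2 and 9.62 with it in the resistant line. All 4 resistant libraries exceeded all 4 parental ones. The excess in the resistant line was 0.44 log2 units without drug (SE 0.06, adjusted p 1.1e-06), and with drug it was 0.37 (SE 0.063, adjusted p 1.2e-05). Its drug responses were -0.00 in parental cells (95% interval -0.13 to 0.12, adjusted p 0.96) and -0.07 in resistant cells (95% interval -0.19 to 0.06, adjusted p 0.38). The difference between them was -0.06 (95% interval -0.24 to 0.12, adjusted p 0.58). The sign of the parental response and of this difference changed with the scaling.

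CA8, the related protein that binds the IP3 receptor ITPR1 (ENSG00000178538, chromosome 8, 60185412 to 60281400, minus strand), had 0 reads in all 8 libraries. Each count of 0 allows up to 3 reads, or 0.0274 to 0.0462 CPM, and covers counting error only. Of its partner family, ITPR3 was the most abundant at 607 CPM in parental untreated cells (mean), and with indisulam it fell by 0.35 log2 units in the parental line (adjusted p 2.5e-10) and by 0.29 in the resistant line (adjusted p 5.8e-09). ITPR1 itself was at 1.78 CPM in parental untreated cells and rose by 0.34 in parental cells (adjusted p 0.024). ITPR2 was the receptor that was lower in the resistant line, at -0.66 log2 units without drug (adjusted p 4.8e-06), while with drug it was at -0.64 (adjusted p 5.5e-06). The difference of the responses was called for none of the 3 receptors, where 22.7% of all tested genes were higher and 27.5% lower. A count over 3 genes cannot be set apart from those shares.

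**Figure D3:**
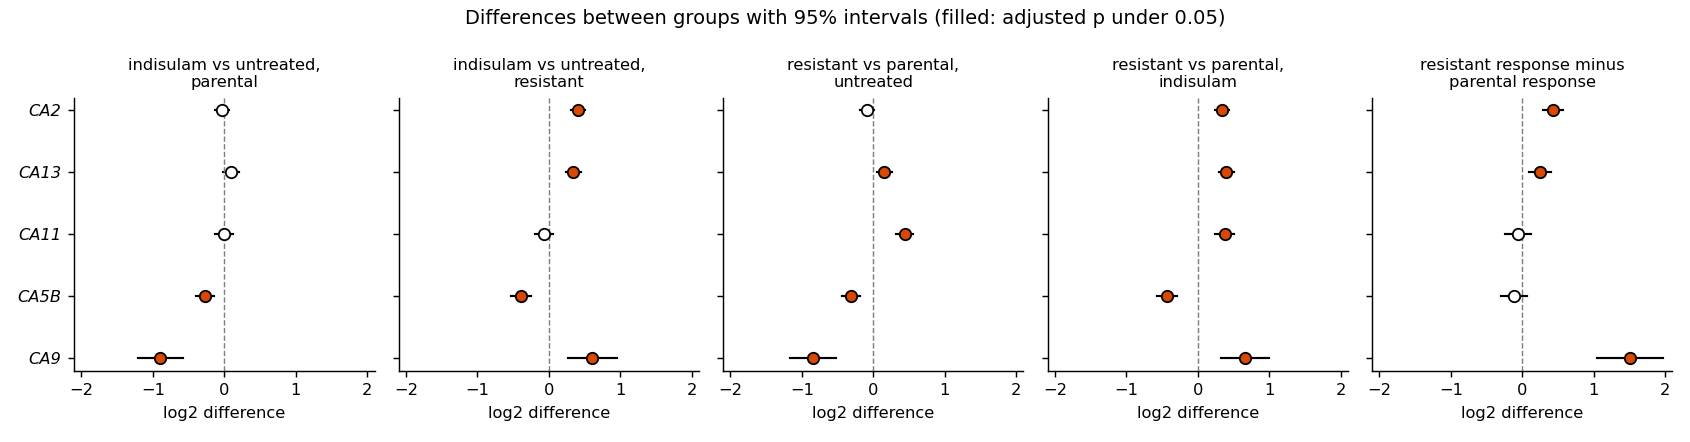
Log2 differences of the 5 tested members in 5 comparisons, with points for the estimates, lines for 95% intervals, and filled points where the adjusted p was under 0.05 (all panels on 1 linear axis). CA9 lay at -0.89 in parental and 0.61 in resistant cells with the drug, CA5B was below 0 in the first 4 comparisons, and CA11 stood away from 0 in the comparisons between lines alone.

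Levels of different genes can be compared only per exon length, in CPM per kb. On this scale CA2 stood at 7.14 to 9.69 over the 8 libraries, CA11 at 3.80 to 5.36, CA13 at 2.52 to 3.67, CA5B at 0.641 to 1.07, and CA9 at 0.515 to 1.08. CA5B and CA9 overlapped, and the other neighbours in this order did not. The annotated exons of CA5B add up to 8522 bases, among them exons of long transcripts that may not be used here, so its level per kb is a low estimate if they are not. Which exons of the other members are used was not tested either. CA13 has 5597 annotated exon bases, and its highest value of 3.67 lay close to the lowest of CA11, 3.80. CA2 supplied 47.4% of the summed level of the 7 genes in untreated and 48.4% in treated parental cells, and 43.1% and 48.4% in the resistant line. CA11, which has no activity, supplied 24.0%, 25.0%, 31.5% and 25.6% in the same order. CA13 supplied 15.7% to 18.3%, CA5B from 3.27% in resistant indisulam to 6.43% in parental untreated cells, and CA9 from 3.43% to 6.34%. The enzymes with activity summed to 14.8 CPM per kb in both resistant indisulam libraries and to 11.4 to 12.8 in the other 6.

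**Figure D4:**
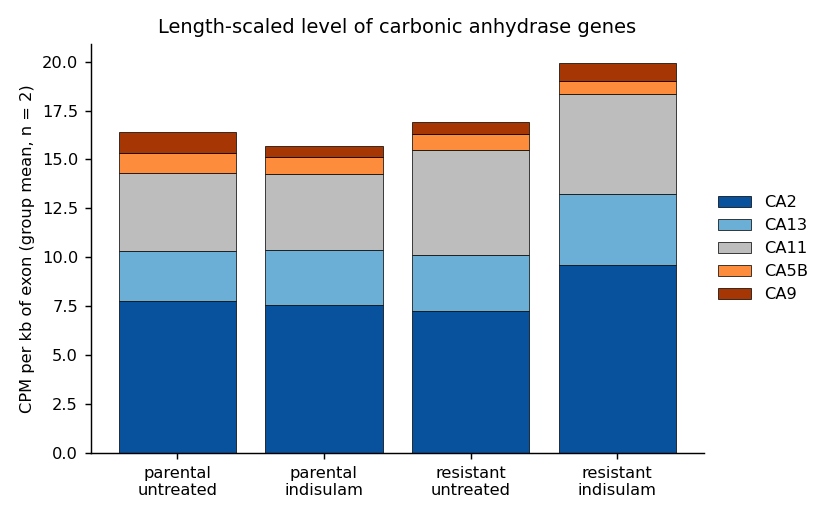
Mean level in CPM per kb of exon (linear axis from 0; n = 2 libraries per group) of CA2, CA13, CA11, CA5B and CA9, stacked for each group; CA8 and CA12 are too low to draw. CA2 was the largest part in every group, at 43.1% to 48.4% of the sum.

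Of 8 further carbonic anhydrase genes, CA4, CA5A, CA6 and CA7 had no reads, CA1 and CA10 had 2 and 1 reads over all libraries, and CA3 and CA14 passed the filter at 7 to 30 and 2 to 29 reads per library. CA3, a cytosolic enzyme of muscle, fell with the drug by 1.26 log2 units in parental cells (SE 0.373, adjusted p 0.0057). CA14, another membrane enzyme, had mean levels of 0.0922 CPM without and 0.0463 with indisulam in parental cells, and of 0.0973 and 0.240 CPM in the resistant line. It passed the filter on low values only through the resistant indisulam libraries, where it is highest, so no test of it is given.

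Carbonic anhydrases work beside carriers of bicarbonate, protons and lactate. Of 20 such genes listed, 14 were tested. With the drug, 4 rose and 5 fell in parental cells, where 31.6% of all tested genes were higher and 26.6% lower. In resistant cells 7 rose and 2 fell, against 24.9% and 25.8% of all genes. SLC26A6, an anion exchanger, went from 9.65 to 6.49 CPM, the largest fall in parental cells (-0.57 log2 units, adjusted p 1.1e-06). In resistant cells SLC4A8 had the largest rise (1.93, adjusted p 0.00064) at 0.0799 to 0.313 CPM, and SLC16A7, a monocarboxylate carrier, the largest fall (-0.18, adjusted p 0.0034). Between the lines, 6 were higher and 3 lower in resistant cells off the drug (30.3% and 29.9% of all genes), and 9 were higher and 4 lower on it (34.6% and 34.9%). SLC4A3, an anion exchanger, led both times, with 1.83 in untreated cells (adjusted p 6.5e-14), and 2.58 in treated ones (adjusted p 8.4e-16). SLC26A6 was lowest off the drug (-0.42, adjusted p 4.1e-05) and SLC9A3 on it (-0.80, adjusted p 0.0017). The responses differed for 8 of the 14, 6 higher and 2 lower in resistant cells, against 22.7% and 27.5% of all genes.

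CA9 is a target of the hypoxia-inducible factors (HIF), so other HIF targets were examined. Of 20 listed, 18 were tested, and BNIP3 and ANGPTL4 had 1 and 13 reads over all libraries. In parental cells 11 of the 18 rose with the drug and 2 fell, against 31.6% and 26.6% of all genes, and CA9 fell. The largest rise was in KDM3A, a histone demethylase (0.42 log2 units, adjusted p 4.2e-10). The largest fall was in MIR210HG, the host transcript of the hypoxia-induced miR-210 (-0.69, adjusted p 0.00013). In resistant cells 15 rose and 1 fell, against 24.9% and 25.8% of all genes. MIR210HG had the largest rise (1.16, adjusted p 2.6e-08), and VEGFA, the angiogenic growth factor, the fall (-0.16, adjusted p 0.00021). The list medians were 0.18 and 0.35 log2 units in parental and resistant cells, where the medians of all tested genes were 0.01 and 0.01. MIR210HG, at 2.34, 1.45, 2.22 and 4.96 CPM in the 4 groups, shared the opposite directions of CA9 in the 2 lines, while the prevailing direction of the list was upward in both.

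**Figure D5:**
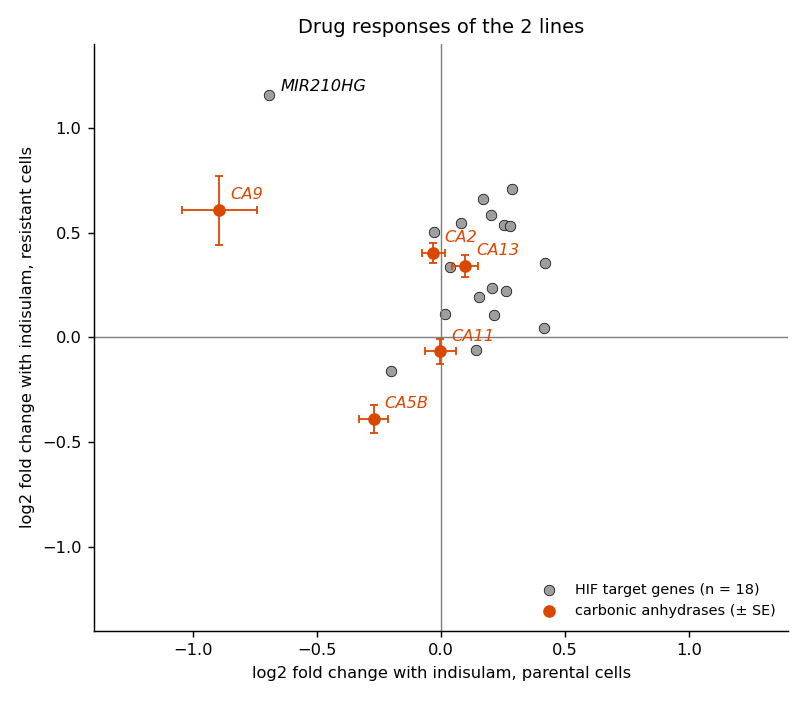
Log2 fold change with indisulam in parental cells (horizontal axis) against resistant cells (vertical axis) for 18 HIF target genes (grey) and the 5 tested members (orange, error bars are SE); both axes are linear. CA9 and MIR210HG lie in the upper left, down in parental and up in resistant cells, CA5B lies in the lower left, and most HIF targets lie in the upper right.

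Between the lines, 8 HIF targets were higher and 5 lower in resistant cells off the drug, where 30.3% and 29.9% of all genes were. On the drug 11 were higher and 4 lower, against 34.6% and 34.9%. VEGFA led off the drug (1.16 log2 units, adjusted p 3.9e-19) and MIR210HG on it (1.77, adjusted p 1.5e-11), while NDRG1 was lowest both times (-0.67, adjusted p 7e-12, and -0.25, adjusted p 9.6e-06). The responses of the lines differed for 11 of the 18, 9 higher and 2 lower in resistant cells, against 22.7% and 27.5%. Among 6 regulators of HIF, 2 rose and 3 fell with the drug in parental cells (31.6% and 26.6% of all genes), and 3 rose and 2 fell in resistant cells (24.9% and 25.8%), counts too small to set apart from those shares. EGLN2, a prolyl hydroxylase that marks HIF for degradation, went from 7.34 to 4.01 CPM in parental cells (log2 change -0.87, adjusted p 1.7e-06). EPAS1, which encodes HIF-2 alpha, had the largest rise there (0.18, adjusted p 1.9e-05). In resistant cells HIF1A went from 333 to 449 CPM (0.43, adjusted p 3.9e-12), and VHL fell by 0.15 (adjusted p 0.00035). Off the drug 1 regulator was higher in resistant cells, HIF1A by 0.24 (adjusted p 4.6e-08), and 1 was lower, EGLN2 with -0.29 (adjusted p 0.014). On the drug 4 were higher and 2 lower, EGLN2 leading with 0.97 (adjusted p 3.3e-07) and EPAS1 lowest with -0.13 (adjusted p 0.00093).

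The genes most like each member were sought among 9088 genes averaging at least 3 on the log2 CPM scale, by Pearson r over the 8 libraries. They were TMEM40 and CRTC2 for CA2 (r of 0.972 and 0.970), SEPTIN11 and SLC12A7 for CA13 (0.976 and 0.976), and PLA2G15 and PLOD1 for CA11 (0.991 and 0.991). They were LRP8 and FAM81A for CA5B (0.997 and 0.997), and SLC8B1 and SUGP2 for CA9 (0.983 and 0.976). With 4 groups of 2 libraries sharing line and treatment, high values of r are common among so many genes, and they are given as a description.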

How the data were processed

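The authors prepared stranded libraries from polyadenylated RNA. For the splicing analysis the study states SeqPurge for adapters and HISAT2 for mapping to GRCh38, and the submitters' processing notes name HISAT2 2.2.1, Picard and HTSeq without a role. The deposited files hold raw counts per Ensembl gene for each library. The strand setting and annotation release of the counting are not given in the sources used here. Each file ends with 9 lines of reads not assigned to a gene, 37.9 to 44.9% of all counts, among them marked duplicates, and these lines were left out. Symbols, positions and exon lengths were those of GENCODE release 44 (GRCh38), where identifiers matched for 60419 of 60675.

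Counts were filtered with filterByExpr, scaled with TMM and fitted with the quasi-likelihood model of edgeR 4.0.16 (R 4.3.3) to all 8 libraries (4 group means, 4 residual degrees of freedom). The Benjamini-Hochberg adjustment ran over all 16661 tested genes, with calls at an adjusted p under 0.05. The SE was the log2 fold change divided by the square root of F, and 95% intervals used the t quantile of the fit. The code was checked on simulated counts. An exact permutation test of single values was not used, since 2 libraries against 2 cannot fall below 0.05. Limits set by depth cover counting error only, as the reads carry no molecular identifiers.

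The members, the lists (other carbonic anhydrases, bicarbonate, proton and lactate carriers, HIF targets, HIF regulators, IP3 receptors, cell type markers) and the tests were chosen with earlier results of these data known. Named genes were the members, the called gene with the largest rise and the one with the largest fall of each list and comparison, and the 2 most alike genes per member. In the marker lists only those that bear on the members are given. A few listed genes are not reported here. The genes named for antisense or copied reads, and the class at 0.5 to 2 CPM, were chosen after the data were examined.

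Counts of the libraries within a group differed by more than sampling noise (mean chi-square per gene 1.95 to 5.80). Alternatives were another scaling, the DESeq2 1.42.0 Wald test, other filters, the groups compared alone, a replicate block, a minimum effect, a stricter threshold, and each library left out in turn. Figures were drawn with matplotlib 3.10.9.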

Additional observations from a re-analysis of the deposited data

Results flagged for a closer look

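The change with indisulam differed between resistant and parental cells by the test of the difference itself (edgeR quasi-likelihood, adjusted p under 0.05) for 3 members. The exposures were unlike, 18 h in parental cells and continuous culture against a drug holiday in resistant cells. Line and kind of exposure thus cannot be told apart in this difference. The resistant minus parental difference was 1.50 log2 units for CA9, which fell in parental and rose in resistant cells. It was 0.44 for CA2 and 0.25 for CA13, which rose in resistant cells and did not pass the test in parental cells. ARHGEF39, opposite to CA9, had a difference of 0.53, and the drug target RBM39 and its ligase adaptor DCAF15 had -0.18 and 0.19.

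Among other carbonic anhydrases the most positive difference was that of CA14, at 2.29, given as a size without its test. In the other pathway lists the called gene with the most positive difference was SLC4A8 among carriers (1.72), MIR210HG among HIF targets (1.85) and EGLN2 among HIF regulators (1.26). CA14 and SLC4A8 had mean levels of at most 0.313 CPM in any group. CA14 passed the filter on low values only through the group where it is highest. A positive difference follows from that selection, so its value cannot be read as a response to the drug. The called gene with the most negative difference in the same lists was CA5BP1 (-0.25), SLC16A1 (-0.32), SLC2A1 (-0.37) and EPAS1 (-0.14), in that order. Among the cell type markers, HBB had a difference of -2.27 and COL1A1 of 1.41.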

How the results depend on the processing

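Tested against a minimum effect of 0.5 log2 units, the members called numbered 1 with the drug in parental cells, 0 in resistant cells, 1 between untreated lines, 0 between lines on the drug and 1 for the difference of the responses. All genes called then numbered 1042, 879, 2582, 3509 and 908. The single member left in each case was CA9, and its calls in resistant cells and between lines on the drug were lost (adjusted p 0.78 and 0.23). No other alternative moved a count of called members, or of genes called in either direction together, by more than 1.5 times, and with single libraries left out called members ranged from 2 to 3, 3 to 4, 3 to 4, 5 to 5 and 2 to 3.

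Libraries with the same replicate number did not deviate together, with correlations of their deviations from the group means between -0.058 and 0.027. With the replicate block the counts of called members were unchanged (2, 4, 4, 5 and 3 of 5), and no single member lost or gained a call. All genes called numbered 9537, 8319, 9865, 11472 and 8206 with the block, against 9690, 8446, 10021, 11579 and 8351 without it.

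Small differences that were not called changed sign in some settings. For the drug in parental cells, CA11 was at 0.0018 with DESeq2 size factors and 0.0016 with the DESeq2 Wald test. Leaving out 1 library at a time gave a range of -0.055 to 0.047 for CA11, -0.0703 to 0.0074 for CA2 and -0.00399 to 0.15 for CA13. For the difference of the responses, CA11 was at 0.054 with library totals alone, at 0.023 with genes of a mean CPM of at least 1, and between -0.12 and 0.0063 with single libraries left out. The cause was not tested.

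With library totals in place of TMM the median of all genes in the difference of the responses shifted from 0.01 to 0.13 log2 units. The share of calls that were higher moved from 54.3% to 42.0% with the drug in parental cells and from 49.1% to 59.7% in resistant cells. It moved from 49.8% to 59.7% between lines on the drug and from 45.2% to 65.8% for the difference of the responses, where the genes called lower numbered 2770 against 4577. No called member changed its direction with either scaling.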
